A study of Rattus norvegicus with 19 samples.

Results

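The comparison set liver transcript levels of rats from the 2 higher doses of the flame retardant mixture DE-71 against those from unexposed rats and the lowest dose. It used 17 of the 19 arrays of the study, 9 in the high arm and 8 in the low arm. The animals were Wistar Han rats (Crl:WI (Han)) with no genetic change given in the labels. Timed-mated dams were dosed by gavage from gestation day 6 through postnatal day 4 with DE-71, a pentabromodiphenyl ether mixture, in corn oil, or with corn oil alone. All groups shared the corn oil vehicle, and RNA came from the left lateral lobe of liver on postnatal day 4. The high arm held 4 arrays at 15 mg/kg per day and 5 at 50 mg/kg per day. The low arm held 5 vehicle arrays and replicates 3, 4 and 5 at 0.1 mg/kg per day. The labels give the sex as female and leave unstated if dams or pups were sampled. Whether each array is its own animal or litter is likewise unstated. The arrays may therefore not be independent, and the p-values rest on a spread that may not be that between litters.

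The remaining 2 arrays, replicates 1 and 2 at 0.1 mg/kg, were left out. The arrays were thus chosen by measured values, the Cyp1a1 signal and the likeness of arrays over all probe sets. Replicate 1 had a Cyp1a1 signal of 14.06 on the log2 scale, against 7.10 to 8.42 over the low arm. Replicate 2 correlated at 0.9986 with vehicle replicate 2 over all probe sets, and the next highest correlation of any pair was 0.9966. Because Cyp1a1 chose an array, genes known to follow the same receptor as Cyp1a1 are described here with 17 arrays, and only the test with all 19 is read for them. Counts over all genes with 17 arrays or fewer still include them, as the fit ran across every probe set. Other genes can also move with Cyp1a1, so calls with 17 arrays were set beside a fit with all 19, where both left-out arrays count in the low arm. That fit counts replicate 2 and the near-identical vehicle replicate 2 as separate low arrays, so its p-values may rest on fewer independent arrays. A call lost in that fit is named with its adjusted p, or with the range for a group of genes, and a named call without one passed there too. Beside some genes the range of adjusted p over its 38 alternatives is given, which are other choices of arrays, array-number terms, scaling or model, and fits without 1 array. The threshold was an adjusted p of 0.05, from limma's moderated two-sided test with Benjamini-Hochberg adjustment over 31042 probe sets. Differences are high minus low on the log2 scale.

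Both arms carried the liver transcript of albumin (Alb) at 15.04 and that of alpha-fetoprotein (Afp), an early-life liver protein, at 14.63 and 14.60. Transcripts of neighbouring tissues were uneven between single arrays. In whole liver, fewer cells of a type and less RNA per cell cannot be told apart. The mean signal of 26 skeletal muscle genes ran from 4.67 to 10.25 (median 4.81) in the low arm and from 4.61 to 8.47 (median 6.03) in the high arm. That of 19 kidney genes reached 8.71 on vehicle replicate 2, and that of 15 intestine genes reached 8.91 on replicate 5 at 15 mg/kg. The lowest arrays of both arms stood between 4.48 and 4.67 for muscle and kidney. The file descriptions number the arrays. Of the 6 used arrays numbered 8 or lower, 5 are in the high arm and 1 in the low arm, while those numbered 9 or higher are 4 high and 7 low. The labels do not say what the number stands for.

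DE-71 and the dioxin-like impurities of such mixtures are ligands or activators of receptors that regulate drug metabolism. The aryl hydrocarbon receptor (AhR) pairs with ARNT on a short DNA core and turns on Cyp1 genes. The receptors CAR and PXR turn on Cyp2b, Cyp2c and Cyp3a genes, conjugating enzymes and export pumps. NRF2, encoded by Nfe2l2, is held down by KEAP1 and turns on genes of glutathione and quinone metabolism. In newborn liver these systems are still maturing, and a foreign compound can reach the young through the placenta and milk.

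With 17 arrays, 479 of 31042 probe sets (1.54%) passed, 273 higher (0.879%) and 206 lower (0.664%) in the high arm. Taking 1 probe set per gene, 296 of 14217 genes (2.08%) passed, 193 higher (1.36%) and 103 lower (0.724%). Called or not, 7089 of the 14217 lay above 0. Of the 296, 4 are AhR targets, all higher, which are no evidence here because Cyp1a1 chose an array. This leaves 292 genes, 189 higher and 103 lower. The median rise among the 193 was 0.42 and 26 exceeded 1, whereas the median fall was -0.39 and 5 genes fell by more than 1. The arms did not overlap at all in 82 genes (0.577%), 56 higher (0.394%) and 26 lower (0.183%), and 76 of the 82 also passed. With all 19 arrays 149 genes passed (1.05%), 106 higher (0.746%) and 43 lower (0.302%), and 140 of the 296 were among them. With the array number, split at 8, as a block, 48 genes passed (0.338%), 41 higher (0.288%) and 7 lower (0.0492%), and all 48 were among the 296. Within the 11 arrays numbered 9 or higher, 7 genes passed (0.0492%), all of them higher, of which 5 are not AhR targets. No probe set passed as lower there, while 1268 were lower at an unadjusted p under 0.05. All 296 genes kept the sign of their difference, which is largely fixed because these 11 arrays are among the 17. Leaving out 1 array at a time gave 203 probe sets (without replicate 3 at 0.1 mg/kg) to 820 (without replicate 5 at 15 mg/kg).

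Cyp1a1 and Cyp1a2, targets of the AhR, had the widest differences of the named genes. Promoters are shown for 4 of the 5 measured members with a RefSeq entry (GRCr8), as the 250 bases before the start site, because the members differ in whether they hold the 5-base core of the AhR element in this window. Each is written on the gene's strand from 5′ to 3′ with the core, GCGTG or its reverse complement CACGC, in capitals. Of 33469 RefSeq promoters cut to this length, 25.9% hold at least 1 core. Cyp1b1 (chr6:21094315-21094564, plus strand) has 2, at 81 and 20 bases before the start site, Nqo1 (chr19:52220268-52220517, minus strand) has 1 at 10 bases, and Tiparp (chr2:152063519-152063768, plus strand) has 1 at 136 bases. Cyp1a2 (chr8:66978150-66978399, minus strand) has 0 in this window.
Cyp1a2: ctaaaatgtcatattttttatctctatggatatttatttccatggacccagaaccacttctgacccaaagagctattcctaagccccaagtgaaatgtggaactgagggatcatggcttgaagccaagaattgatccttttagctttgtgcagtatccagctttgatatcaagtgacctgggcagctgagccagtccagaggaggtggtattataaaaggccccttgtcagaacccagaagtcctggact
Cyp1b1: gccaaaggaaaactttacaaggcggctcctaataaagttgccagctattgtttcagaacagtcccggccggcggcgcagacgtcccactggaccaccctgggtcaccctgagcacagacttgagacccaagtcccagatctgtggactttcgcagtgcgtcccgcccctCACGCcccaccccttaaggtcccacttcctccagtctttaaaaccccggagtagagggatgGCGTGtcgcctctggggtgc
Nqo1: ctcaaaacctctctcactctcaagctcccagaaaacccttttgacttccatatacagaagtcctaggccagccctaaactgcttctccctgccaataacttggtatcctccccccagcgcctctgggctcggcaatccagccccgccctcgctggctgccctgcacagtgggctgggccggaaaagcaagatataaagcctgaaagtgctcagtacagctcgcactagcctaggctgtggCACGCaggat
Tiparp: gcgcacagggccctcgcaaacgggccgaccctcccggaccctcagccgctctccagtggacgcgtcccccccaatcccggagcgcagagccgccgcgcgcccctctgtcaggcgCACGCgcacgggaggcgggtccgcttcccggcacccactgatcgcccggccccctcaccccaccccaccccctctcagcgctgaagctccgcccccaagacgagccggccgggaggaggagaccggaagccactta

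Cyp1a1, an oxidase widely used as a readout of AhR activity, was the gene by which 1 array was left out, so its separation is a description. Its signal was 7.10 to 8.42 (median 7.81) over the 8 low arrays and 13.16 to 14.30 (median 14.13) over the 9 high arrays. The arms did not overlap, and the mean difference was 6.08 (SE 0.203), or 67.9-fold. The 50 mg/kg arrays lay close together, from 14.11 to 14.30, and the 15 mg/kg arrays spread from 13.16 to 14.17. Values this high are near the top of the range of the array (15.06), where RMA values compress folds.

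Cyp1a2, its neighbour in the same family and the oxidase of caffeine and aromatic amines, ran from 7.64 to 8.98 (median 8.50) in the low arm and from 10.66 to 14.33 (median 13.96) in the high arm. The arms were again apart, with a mean difference of 4.83 (SE 0.483). Within the high arm the 15 mg/kg arrays held the lowest values, 10.66, 11.32 and 12.35, and the remaining 1 stood at 14.08. Nqo1, a quinone reductase under both AhR and NRF2, was 8.12 to 8.75 (median 8.35) and 9.38 to 12.04 (median 10.47) in the low and high arms, a difference of 2.15 (SE 0.288) with no overlap. Cyp1b1, an oxidase of steroids and aromatic hydrocarbons, differed by 2.46 (SE 0.6), but its arms overlapped. At 15 mg/kg its values were 9.89, 6.17, 7.32 and 7.36, and the highest low array stood at 7.56.

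**Figure D1:**
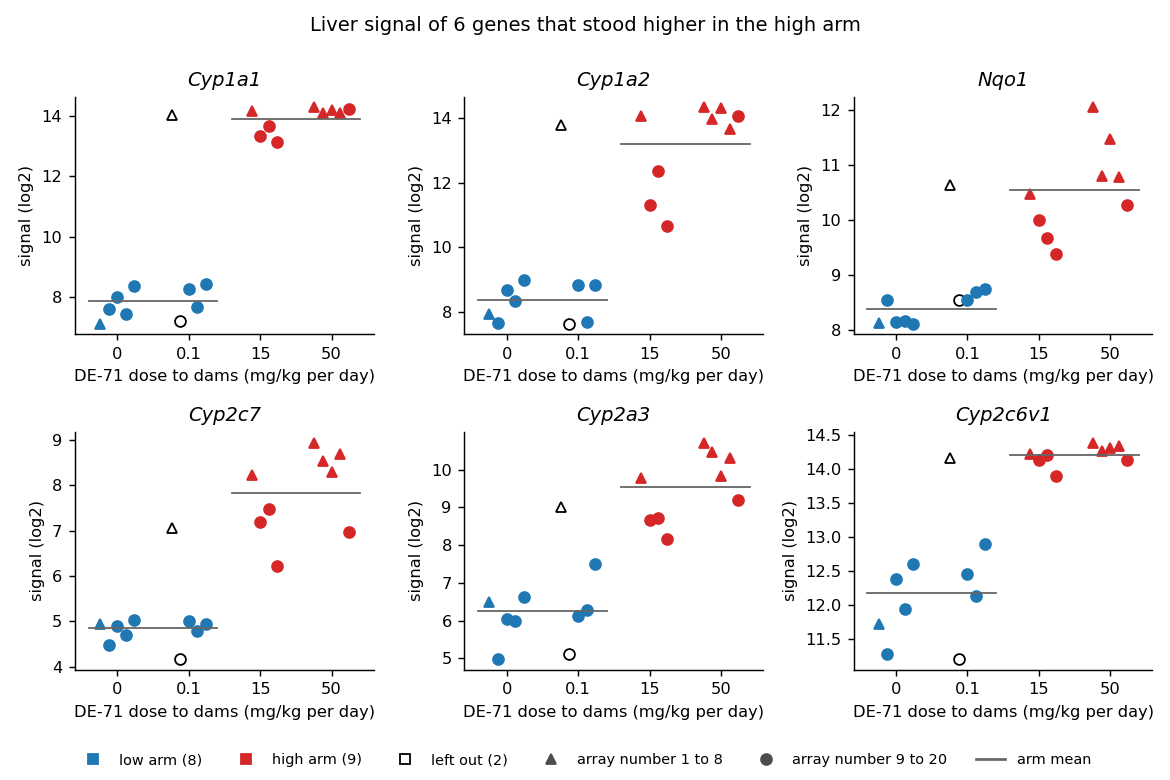
Log2 signal (vertical axis) of Cyp1a1, Cyp1a2, Nqo1, Cyp2c7, Cyp2a3 and Cyp2c6v1 on all 19 arrays by DE-71 dose to the dams in mg/kg per day (horizontal axis). Blue marks the 8 low arrays, red the 9 high arrays and white the 2 left out, triangles are arrays numbered 1 to 8, and lines are arm means. Red and blue points do not overlap in any of the 6 panels, and the white triangle, replicate 1 at 0.1 mg/kg, lies within the range of the red points.

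In the test over all 19 arrays, which includes both arrays left out, 3 of the 7 measured AhR targets rose, beside 0.746% of all genes. Cyp1a1 rose by 5.53 (SE 0.645, adjusted p = 0.000844), Cyp1a2 by 4.36 (SE 0.696, adjusted p = 0.007) and Nqo1 by 1.91 (SE 0.339, adjusted p = 0.0122). With the array number as a block as well, their adjusted p were 0.00212, 0.0187 and 0.0332. Cyp1b1 did not pass, at 2.05 (SE 0.614, adjusted p = 0.118). The other 3 showed small differences with 17 arrays: Tiparp, an AhR-induced ADP-ribosyltransferase, 0.07 (SE 0.0857), Ahrr, the AhR repressor, 0.07 (SE 0.0907), and Aldh3a1, an aldehyde dehydrogenase, 0.02 (SE 0.0845). Ahrr and Aldh3a1 stood near 3.96 and 4.22 in the low arm, low on the scale, whereas Tiparp stood at 8.85 with 1 core in its promoter above.

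Most genes of the CAR and PXR list rose. The list holds 28 genes, of which 20 had a probe set with 1 gene symbol, and those without are not counted. No Cyp2b gene is described here. Of the 20 members measured this way, 14 rose and 0 fell (70.0%, beside 1.36% of all genes rising), 12 of the 14 with arms that did not overlap. The median over the 20 was 0.96 against 0.00 over all genes. With all 19 arrays 12 rose and with the array-number block 11 rose. The gene lists share members, so the same gene can count in several of them. Of the 14, Alas1 and Por also count in the electron and heme supply list, and Ugt2b1 in the phase II list. Ephx1, Gstm1 and Akr7a3 also count in the NRF2 and glutathione list. The shares of these lists are therefore not separate evidence. The probe sets of Cyp2c, Cyp3a, Cyp2a and Ugt2b genes can bind near-identical relatives, so a value may hold more than the named gene.

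Cyp2c7, an oxidase of retinoids and steroids, ran from 4.47 to 5.03 (median 4.92) in the low arm and from 6.22 to 8.94 (median 8.22) in the high arm. Every high array stood above every low array, and the rise was 2.99 (SE 0.305), or 7.95-fold (adjusted p = 5.8e-05, 0.00096 with all 19 arrays, 1.58e-06 to 0.0031 over its alternatives). At 7.06 the left-out replicate 1 also stood above the low arm. Cyp2c6v1, an abundant drug oxidase, was 11.28 to 12.90 (median 12.25) in the low arm and 13.90 to 14.38 (median 14.22) in the high arm, without overlap. It rose by 2.02 (SE 0.168, adjusted p = 3.14e-06, 0.00333 with all 19, 9.25e-08 to 0.035 over its alternatives).

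Cyp3a23-3a1, the classic PXR target, was already high, at 13.40 ± 0.0894 (SD, n = 8), and reached 14.15 ± 0.108 (SD, n = 9). The step of 0.75 (SE 0.0535) was small beside that of Cyp2c7, but its arrays varied little within an arm, and its adjusted p of 4.95e-07 was the smallest among the named genes other than AhR targets. All 19 arrays gave 0.000844, and its alternatives gave 8.05e-08 to 0.00626. Its relatives did not pass: Cyp3a2 differed by 0.14 (SE 0.0403, adjusted p = 0.0849), Cyp3a9 by 0.41 (SE 0.102, adjusted p = 0.0517) and Cyp3a18 by -0.08 (SE 0.291, adjusted p = 0.928).

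Ces2c, a carboxylesterase of drug esters, rose by 1.38 (SE 0.186) from 6.03 ± 0.192 (SD, n = 8), with its arms apart (adjusted p = 0.000952). Cyp2c7, Cyp2c6v1, Cyp3a23-3a1, Ces2c and Ugt2b1 also passed within the arrays numbered 9 or higher, where their adjusted p were 0.00177, 0.0272, 0.00626, 0.0223 and 0.0223. The differences there were 2.13, 1.84, 0.65, 0.99 and 0.89. They are the 5 genes outside the AhR list that passed within those arrays. The same 5 also passed in each of the 38 alternatives, the array blocks among them, and no other named gene outside the AhR list did.

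Among 23 other cytochromes P450, 4 rose and 1 fell (21.7%, beside 2.08% of all genes called), with a median of 0.05. Cyp2a3, whose relatives oxidise coumarin and nicotine, ran from 4.98 to 7.51 (median 6.20) in the low arm to 8.15 to 10.71 (median 9.77) in the high arm. The arms did not overlap, and the rise of 3.28 (SE 0.364), 9.74-fold, was the largest among genes outside the AhR list (adjusted p = 0.000144, 0.0036 with all 19, 1.08e-05 to 0.0675 over its alternatives). Cyp2c11, known as the male-predominant P450 of adult rat liver, rose by 1.23 (SE 0.182) with overlapping arms (adjusted p = 0.00211). Smaller rises were those of Cyp2c22 (0.69, adjusted p = 0.044) and Cyp2d4 (0.29, adjusted p = 0.0349), and Cyp2u1 fell by 0.41 (adjusted p = 0.038). With all 19 arrays 2 of the 23 passed, and Cyp2c22, Cyp2d4 and Cyp2u1 were not among them (adjusted p = 0.0583, 0.0585 and 0.147).

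P450 enzymes need electrons and heme. Of 16 genes that supply them, 4 rose and 0 fell (25%, beside 1.36% of all genes higher). The median of the list was -0.05, and 12 did not pass. Alas1, the first and rate-limiting enzyme of heme synthesis, was 10.37 to 11.20 (median 10.85) in the low arm and 11.56 to 12.60 (median 12.21) in the high arm. It rose by 1.23 (SE 0.156) with no overlap (adjusted p = 0.000636, 0.007 with all 19, 3.01e-05 to 0.188 over its alternatives). Por, the reductase that passes electrons to every microsomal P450, was 9.16 to 9.92 (median 9.52) and 10.08 to 11.40 (median 10.47). Its arms were apart, and it rose by 1.07 (SE 0.166, adjusted p = 0.00352). The electron carrier Cyb5a rose by 0.36 (SE 0.0523, adjusted p = 0.00186) and Pgrmc1, a heme-binding partner of P450, by 0.34 (SE 0.0727, adjusted p = 0.0261). All 4 passed with 19 arrays, and 3 with the block, where Pgrmc1 had an adjusted p of 0.16.

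Of 21 phase II genes, 5 rose and 0 fell (23.8%, beside 1.36% of all genes higher), with a median of 0.19. Ugt2b10, a UDP-glucuronosyltransferase, ran from 8.98 to 10.26 (median 9.77) in the low arm and from 10.61 to 11.92 (median 11.40) in the high arm. Its rise of 1.68 (SE 0.179) left no overlap (adjusted p = 9.52e-05). Ugt2b1, of the same family, rose by 0.93 (SE 0.076) from 12.84 ± 0.197 (SD, n = 8), also without overlap (adjusted p = 2.97e-06, 0.00143 with all 19, 5.85e-07 to 0.0223 over its alternatives). Ugt2b15 rose by 0.83 and Ugt2b35 by 0.45 (adjusted p = 0.00143 and 0.000233). The sulfotransferase Sult1b1, which acts on thyroid hormones and phenols, rose by 0.93 (SE 0.173) with 17 arrays (adjusted p = 0.0123) but did not pass with all 19 (adjusted p = 0.137, 0.001 to 0.414 over its alternatives).

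Of 23 transporters, 3 export pumps rose and 0 fell (13%, beside 1.36% of all genes higher). All 3 are also in the CAR and PXR list. Abcc3, which moves conjugates back to blood, was 8.23 to 9.08 (median 8.72) in the low arm and 9.23 to 10.88 (median 10.34) in the high arm. The rise of 1.50 (SE 0.193) left the arms apart (adjusted p = 0.000636). Abcb1a, a P-glycoprotein, rose by 1.01 (SE 0.166) and Abcc2, which moves conjugates into bile, by 0.83 (SE 0.15) (adjusted p = 0.00529 and 0.00996). Both had arms that did not overlap, and all 3 passed with 19 arrays, whereas Abcc2 did not with the block (adjusted p = 0.0725).

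Among genes outside the lists, Dnajb3, which encodes a small heat shock co-chaperone and lies inside the Ugt1a gene cluster of the RefSeq annotation, rose by 1.72 (SE 0.229, adjusted p = 0.000892). Its probe set and transcripts of the overlapping Ugt1a genes cannot be told apart here, and Ugt1a6 and Ugt1a7c were not analysed here by name. Mnd1, a meiotic recombination factor, rose by 1.23 (SE 0.163, adjusted p = 0.000877). Both had arms that did not overlap.

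Of 33 NRF2 and glutathione genes other than the AhR target Nqo1, 10 rose and 0 fell with 17 arrays (30.3%, beside 1.36% of all genes higher). With Nqo1, 28 of all 34 lay above 0, with a median of 0.27. Of these 10, Ephx1 and Me1 passed with all 19 arrays and Ephx1 with the block. Nfe2l2 itself was 10.21 to 10.63 (median 10.44) in the low arm and 10.65 to 11.61 (median 11.22) in the high arm. It rose by 0.75 (SE 0.101) with no overlap (adjusted p = 0.000976, 0.0166 with all 19, 3.45e-05 to 0.311 over its alternatives). Ephx1, the microsomal epoxide hydrolase, was 11.13 to 11.68 (median 11.44) and 11.92 to 13.13 (median 12.62), a rise of 1.17 (SE 0.145) with arms apart (adjusted p = 0.000515). Me1, an NADPH-forming malic enzyme, rose by 0.91 (SE 0.169, adjusted p = 0.0123).

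Akr7a3, an aflatoxin aldehyde reductase, rose by 0.99 (SE 0.207) and Gstm1, a glutathione transferase, by 0.90 (SE 0.182) (adjusted p = 0.0238 and 0.0207). Srxn1, which repairs peroxiredoxins, rose by 0.71, Gsr, which recycles glutathione, by 0.59, Gstt2 by 0.50, Gsta4 by 0.49, Txnrd1, a thioredoxin reductase, by 0.35 and Gsta1 by 0.29. All 8 failed the threshold with 19 arrays, at adjusted p from 0.0652 to 0.153. Gclc and Gclm, the subunits of the enzyme that starts glutathione synthesis, differed by 0.20 (SE 0.0785) and 0.17 (SE 0.12) (adjusted p = 0.216 and 0.52). Hmox1, the heme oxygenase often used as an NRF2 marker, differed by -0.33 (SE 0.108, adjusted p = 0.133).

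Of 24 receptor and cofactor genes, only Nfe2l2 and Ahr rose and 0 fell (8.33%, beside 1.36% of all genes higher). Ahr was 4.76 to 6.72 (median 6.28) in the low arm and 6.76 to 7.54 (median 7.03) in the high arm. The arms were narrowly apart, by 0.04 between the nearest arrays, and the lowest value was that of vehicle replicate 2. The difference of 0.94 (SE 0.216) passed with 17 arrays (adjusted p = 0.0376), did not with 19 (adjusted p = 0.0765, 0.00939 to 0.6 over its alternatives), and held in 7 of 17 fits that left out 1 array. Its partner Arnt differed by 0.02 (SE 0.096), the PXR gene Nr1i2 by 0.14 (SE 0.11), the CAR gene Nr1i3 by -0.24 (SE 0.138) and the NRF2 inhibitor Keap1 by 0.18 (SE 0.0871). Their adjusted p ran from 0.326 to 0.938.

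**Figure D2:**
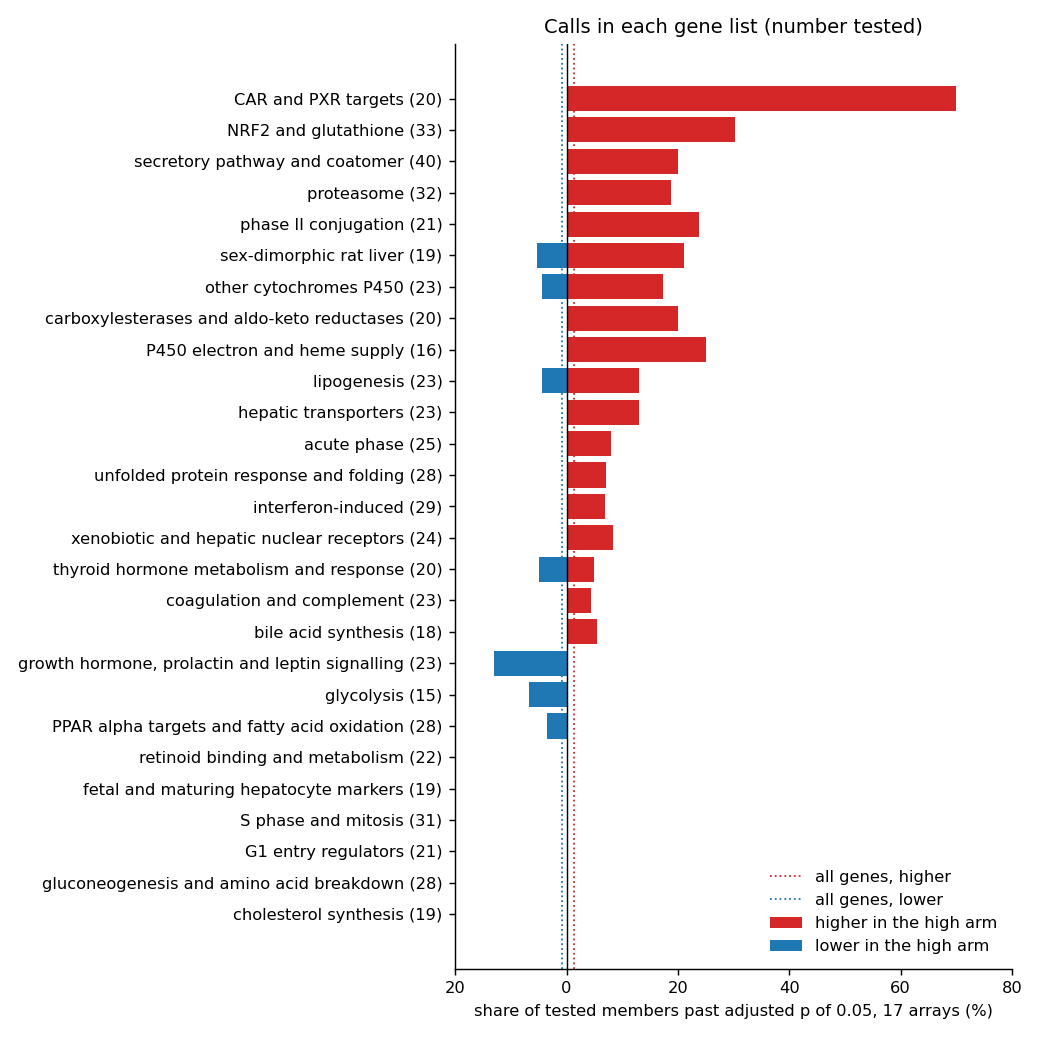
Share of tested members of 27 gene lists that passed an adjusted p of 0.05 with 17 arrays (horizontal axis, %), higher in the high arm to the right (red) and lower to the left (blue), with the number tested in brackets and the shares over all genes as dotted lines. The CAR and PXR list reaches 70.0% higher, and the list of growth hormone, prolactin and leptin signalling has the largest share lower, 13%.

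Of 40 secretory pathway and coatomer genes, 8 rose and 0 fell (20%, beside 1.36% of all genes higher). In the list 36 lay above 0, beside 7089 of all 14217 genes, and the median was 0.16. Sar1b, the GTPase that starts COPII vesicles, rose by 0.45 (SE 0.058) with arms apart (adjusted p = 0.000636), and the COPII coat protein Sec13 by 0.35 (SE 0.0606, adjusted p = 0.00725). Ssr1, a subunit of the translocon, rose by 0.44 (SE 0.0877, adjusted p = 0.0174). With 19 arrays 5 rose, and with the block 1.

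Of 32 proteasome genes, 6 rose and 0 fell (18.8%, beside 1.36% of all genes higher), and all 32 lay above 0 with a median of 0.16. Psma1 of the core particle rose by 0.34 (SE 0.0637) and Psmc5, an ATPase of the cap, by 0.31 (SE 0.0535) (adjusted p = 0.0123 and 0.0072), both with arms apart. With 19 arrays 3 rose, and with the block 0, where the median was 0.14. Of 28 genes of the unfolded protein response, only 2 rose and 0 fell (7.14%, beside 1.36% of all genes higher). These were Derl1 (0.28) and Dnajc3 (0.37), with adjusted p of 0.0378 and 0.0304. Derl1 did not pass with all 19 arrays (adjusted p = 0.0774, 0.0159 to 0.641 over its alternatives), and neither passed with the block (adjusted p = 0.191 and 0.129).

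Of 29 interferon-induced genes, only 2 rose and 0 fell (6.90%, beside 1.36% of all genes higher). Of the 29, 25 lay above 0, with a median of 0.25. Usp18, which removes the ubiquitin-like ISG15 from proteins, was 5.49 to 6.31 (median 6.12) in the low arm and 6.46 to 7.52 (median 6.95) in the high arm. It rose by 0.99 (SE 0.16) with arms apart (adjusted p = 0.00482), and Ifih1, an RNA sensor, rose by 0.23 (SE 0.056, adjusted p = 0.0447). Ifih1 did not pass with all 19 arrays (adjusted p = 0.0742) or with the block (adjusted p = 0.16, 0.0255 to 0.622 over its alternatives). Isg15 and Rtp4 missed the threshold, at 0.71 (SE 0.178) and 0.64 (SE 0.161) (adjusted p = 0.0528 for each). Of 14 T and NK lymphocyte markers, 13 lay above 0 with a median of 0.11 and 0 passed, and their part in the interferon values was not tested.

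Of 25 acute phase genes, only 2 rose and 0 fell (8%, beside 1.36% of all genes higher), with a list median of 0.03. C-reactive protein (Crp), an acute phase protein in man and abundant in rat serum, was 10.87 to 11.84 (median 11.19) in the low arm and 11.67 to 13.15 (median 12.56) in the high arm. The arms overlapped, and the rise was 1.16 (SE 0.188, adjusted p = 0.00482). Serpina3m, a serine protease inhibitor, rose by 1.10 (SE 0.254, adjusted p = 0.0378) but held in only 4 of 17 fits that left out 1 array, and did not pass with the block (adjusted p = 0.196). Neutrophil markers ran from 9.36 to 10.42 (median 10.19) in the low arm and from 9.48 to 10.12 (median 9.77) in the high arm, and none of 10 passed. A further fit took tissue scores, the mean signals of muscle, pancreas, kidney and neutrophil markers, as covariates. In it Crp differed by 1.12 (adjusted p = 0.0053) and Serpina3m by 0.92 (adjusted p = 0.036).

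With 17 arrays 206 probe sets fell and 273 rose, an order that turned without vehicle replicate 2 (268 fell and 233 rose). It also turned with array weights (735 and 628) and with tissue scores as covariates (567 and 391). Lepr, the leptin receptor, had the largest fall among called genes, and was 6.74 to 8.22 (median 7.42) in the low arm and 4.70 to 6.67 (median 6.06) in the high arm. The lowest low array was vehicle replicate 2 and the highest high array replicate 5 at 15 mg/kg, which stood 0.07 apart. Lepr fell by 1.53 (SE 0.253), or 2.89-fold (adjusted p = 0.0053, 0.0207 with all 19, 0.000248 to 0.356 over its alternatives). Of its 7 probe sets, 6 lay below 0 and 4 passed. With the array-number block its adjusted p was 0.052.

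Prlr, the prolactin receptor, was 8.76 to 10.25 (median 9.09) in the low arm and 7.41 to 8.74 (median 8.23) in the high arm. It fell by 0.94 (SE 0.199, adjusted p = 0.0239) at all 3 of its probe sets, and did not pass with 19 arrays (adjusted p = 0.092, 0.01 to 0.545 over its alternatives). Igfbp2, a binding protein of insulin-like growth factors, fell by 0.44 with overlapping arms (adjusted p = 0.044, 0.0532 with all 19, 0.0103 to 0.559 over its alternatives). These 3 were the falls among 23 genes of growth hormone, prolactin and leptin signalling (13%, beside 0.724% of all genes lower), in which 0 rose and the median was -0.16. Of the 3, 1 passed with 19 arrays and 0 with the block.

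**Figure D3:**
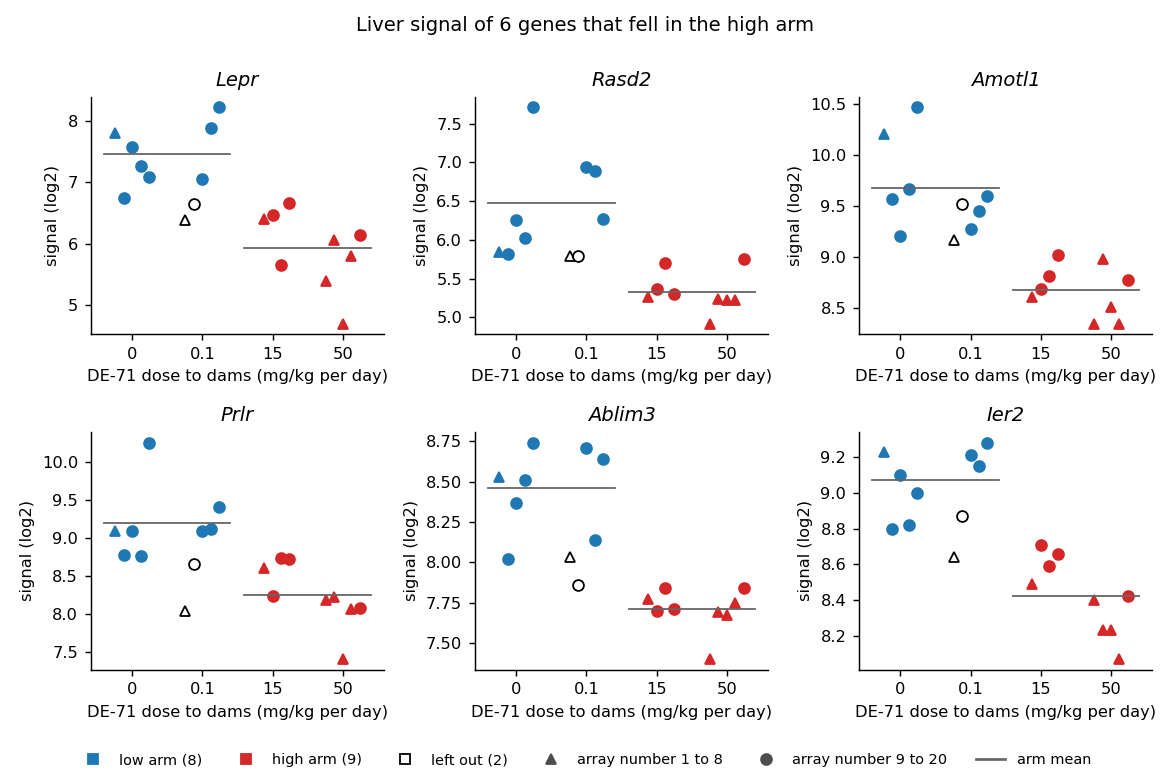
Log2 signal (vertical axis) of Lepr, Rasd2, Amotl1, Prlr, Ablim3 and Ier2 on all 19 arrays by DE-71 dose to the dams in mg/kg per day (horizontal axis). Colours, shapes and lines mark arms, array numbers and arm means, with blue for the low arm, red for the high arm and white for the 2 arrays left out. The red points lie below the blue points in each panel, by margins that are narrow beside the spread within an arm.

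Rasd2, a small GTPase, was 5.82 to 7.71 (median 6.26) in the low arm and 4.92 to 5.76 (median 5.26) in the high arm. It fell by 1.14 (SE 0.219, adjusted p = 0.0145), and its spread was wider in the low arm. Amotl1, an angiomotin-like protein of cell junctions, was 9.21 to 10.47 (median 9.58) and 8.35 to 9.02 (median 8.69). Its fall of 1.01 (SE 0.159) had an adjusted p of 0.00401, 0.00729 with all 19 and 0.000431 to 0.393 over its alternatives. Ablim3, an actin-binding LIM protein, was 8.02 to 8.74 (median 8.52) and 7.40 to 7.84 (median 7.71), a fall of 0.75 (SE 0.0959, adjusted p = 0.000636). Ier2, an immediate early gene, fell by 0.65 (SE 0.0943, adjusted p = 0.00183). Amotl1, Ablim3 and Ier2 also passed with the array-number block (adjusted p = 0.0307, 0.00684 and 0.0216), and Rasd2 did not (adjusted p = 0.11).

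The other named falls with arms apart were 0.80 for Prtg, an immunoglobulin-family membrane protein, 0.62 for Acy3, an aminoacylase of mercapturic acids, and 0.59 for Aard. Pitpnc1, a phosphatidylinositol transfer protein, fell by 0.46, Asb9, a SOCS box protein, by 0.46, and Pbx2, a homeobox factor, by 0.45. Their adjusted p with 17 arrays ran from 0.00559 to 0.0299. Pitpnc1 did not pass with 19 arrays (adjusted p = 0.0665, 0.00477 to 0.435 over its alternatives), and none of the 6 passed with the block. Stellate cell, endothelial and kidney markers, some of which lay lower in the high arm, passed in 0 of 24, 0 of 16 and 0 of 19, with medians of -0.09, -0.15 and -0.34. The fit with tissue scores as covariates, kidney among them, kept all 48 named calls outside the AhR list. Stellate cell and endothelial scores were not in that fit, and the part of these markers in the falls was not tested.

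Among the lists of lipid and glucose handling, the lipogenic list held the most calls. Of 23 lipogenic genes, 3 rose and 1 fell (17.4%, beside 2.08% of all genes called), with a median of 0.08. Elovl6, which lengthens saturated fatty acids, rose by 0.75 (SE 0.137) and Elovl5, which lengthens polyunsaturated ones, by 0.42 (SE 0.0822) (adjusted p = 0.0105 and 0.0167), beside Me1 above. Elovl5 did not pass with all 19 arrays (adjusted p = 0.0551, 0.00334 to 0.425 over its alternatives), and with the block none of the 3 did (adjusted p = 0.0874, 0.122 and 0.091). Pklr, the liver pyruvate kinase, fell by 0.65 (SE 0.141, adjusted p = 0.0299, 0.0739 with all 19, 0.00734 to 0.573 over its alternatives). Of 28 genes of PPAR alpha and fatty acid oxidation, Acadm, a mitochondrial acyl-CoA dehydrogenase, fell by 0.33 (adjusted p = 0.0225, 0.0985 with the block) and 0 rose, beside 0.724% of all genes lower. None of 19 cholesterol synthesis genes and none of 28 genes of gluconeogenesis and amino acid breakdown passed.

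Of 18 bile acid genes, Akr1c14, a hydroxysteroid dehydrogenase, rose by 0.60 (SE 0.112, adjusted p = 0.0118, 0.066 with the block) and 0 fell. That is 5.56% of the list beside 2.08% of all genes called, 1 gene in all. Cyp7a1, the rate-limiting enzyme of bile acid synthesis, differed by 0.81 (SE 0.297, adjusted p = 0.176). Of 20 thyroid hormone genes, Me1 rose (lost with the block, as above) and Serpina7, thyroxine-binding globulin, fell by 0.56 (SE 0.129, adjusted p = 0.0384, 0.165 with all 19, 0.00444 to 0.692 over its alternatives). These make 10% of that list, beside 2.08% of all genes called. The deiodinase Dio1 and the thyroxine carrier Ttr differed by -0.37 (SE 0.204) and -0.03 (SE 0.0412) (adjusted p = 0.387 and 0.778). Dio1 varied within both arms, while Ttr stood at 14.52 and 14.49, near the top of the range.

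None of 19 fetal and maturing hepatocyte genes, 31 genes of S phase and mitosis, 22 retinoid genes or 21 regulators of G1 entry passed with 17 arrays. Among the last, Ccnd1, cyclin D1, was 9.18 to 10.24 (median 9.70) in the low arm and 7.96 to 9.52 (median 8.73) in the high arm. The difference of -0.83 (SE 0.21) missed the threshold with 17 arrays (adjusted p = 0.0528) and passed with 19 (adjusted p = 0.0407, 0.00722 to 0.652 over its alternatives). The fit with 19 counts the near-identical pair separately, vehicle replicate 2 at 10.24 and replicate 2 at 0.1 mg/kg at 10.25, the highest Ccnd1 values. Its values at 15 mg/kg, 9.25, 9.36, 9.52 and 9.41, lay within the low arm, and those at 50 mg/kg ran from 7.96 to 8.73, below every low array. With dose groups fitted separately by limma, it differed from vehicle by -0.22 (adjusted p = 0.642) at 15 and by -1.18 (adjusted p = 0.0018) at 50 mg/kg. The 2 doses did not differ past the threshold (adjusted p = 0.19), and dose and array number are tied in part. Of the cell type lists, 1 gene each passed for pancreas, Reg3g (0.27 from a signal of 3.49, adjusted p = 0.0239), and intestine, Apoa4. Apoa4, an apolipoprotein of intestine and newborn liver, differed by 2.06 (SE 0.485, adjusted p = 0.0423), held in 5 of 17 fits that left out 1 array, and was highest, at 12.31, on the array with the highest intestine markers.

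The high arm pools 2 doses, and the dose groups were also fitted separately on the 17 arrays, where the comparisons share the vehicle arrays. Against vehicle, 20 genes passed at 15 mg/kg (0.141%), all higher, and 461 at 50 mg/kg (3.24%), 355 higher (2.5%) and 106 lower (0.746%). All 296 genes of the pooled comparison lay in the pooled direction at both doses, which the choice of arms largely fixes. The difference was larger at 50 than at 15 mg/kg in 174 of 193 risen and 79 of 103 fallen genes, and the median ratio of the 15 to the 50 mg/kg difference was 0.65. These genes share the same arrays, so the counts are not independent, and the 193 include the called AhR targets. Array numbers are mostly lower at 50 than at 15 mg/kg, so dose and array number are tied in part. The part of the array number in differences between these doses was not tested, here or below. No probe set passed between 50 and 15 mg/kg (smallest adjusted p = 0.14 by limma, with 2737 at an unadjusted p under 0.05), so single genes are not shown to differ between these doses.

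Side by side, Cyp2c7 differed from vehicle by 2.47 (SE 0.367) at 15 mg/kg and by 3.48 (SE 0.346) at 50 mg/kg, and Abcb1a by 1.25 and 1.19. Cyp2c6v1 gave 2.12 and 2.29. Its means of 14.11 and 14.28 at these doses lay near the top of the range, where folds are compressed, so the 2 differences cannot be compared closely. Me1 gave 0.50 (adjusted p = 0.311) and 1.22 (adjusted p = 0.000695). By list, the CAR and PXR median was 0.72 at 15 mg/kg and 1.21 at 50 mg/kg, and the NRF2 and glutathione median 0.19 and 0.34. Within the low arm, 0 probe sets passed between the 3 arrays at 0.1 mg/kg and vehicle (smallest adjusted p = 0.595 by limma, 2166 at an unadjusted p under 0.05). Over the genes that rose and fell in the pooled comparison, the median difference between those groups was 0.06 and 0.03.

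Each array was also placed between the arms, with 0 for the low mean and 1 for the high mean, on the genes other than AhR targets that passed in a fit without it. The 8 low arrays had median positions from -0.10 to 0.32 and the 9 high arrays from 0.39 to 1.40, so the medians of the arms did not overlap. The genes differ from array to array. The high array nearest the low arm, replicate 5 at 15 mg/kg, had quartiles of 0.03 and 0.72. It was past the midpoint in 41.5% of its genes, beside 39.1% for vehicle replicate 2 of the low arm. The 50 mg/kg arrays stood at 0.89 to 1.40 and the 15 mg/kg arrays at 0.39 to 0.73. Within the arrays numbered 9 or higher, the high arm stood at 0.39 to 0.89 and the low arm at -0.10 to 0.32. At 15 mg/kg the array numbered 8 or lower stood at 0.73 and the other 3 at 0.39 to 0.72. At 50 mg/kg the array numbered 9 or higher stood at 0.89 and the other 4 at 1.01 to 1.40. The part of the array number in these positions was not tested.

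Replicate 1 at 0.1 mg/kg, left out for Cyp1a1, stood at 0.88 on the 292 genes, past the midpoint in 241 of them (82.5%). Its signals of Cyp1a2 (13.80), Cyp2c6v1 (14.16) and Cyp3a23-3a1 (14.06) lay within the range of the high arm. Its Lepr signal, 6.38, lay there too, whereas its Amotl1 signal, 9.17, lay between the arms, and its Ccnd1 signal, 9.70, within the low arm. Replicate 2 stood at -0.13, past the midpoint in 51 of the 292 genes (17.5%). Its near-identical array, vehicle replicate 2, is in the low arm that chose these genes, which largely fixes this position. Vehicle replicate 2 itself stood at 0.31 on genes called without it, past the midpoint in 39.1% of them.

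**Figure D4:**
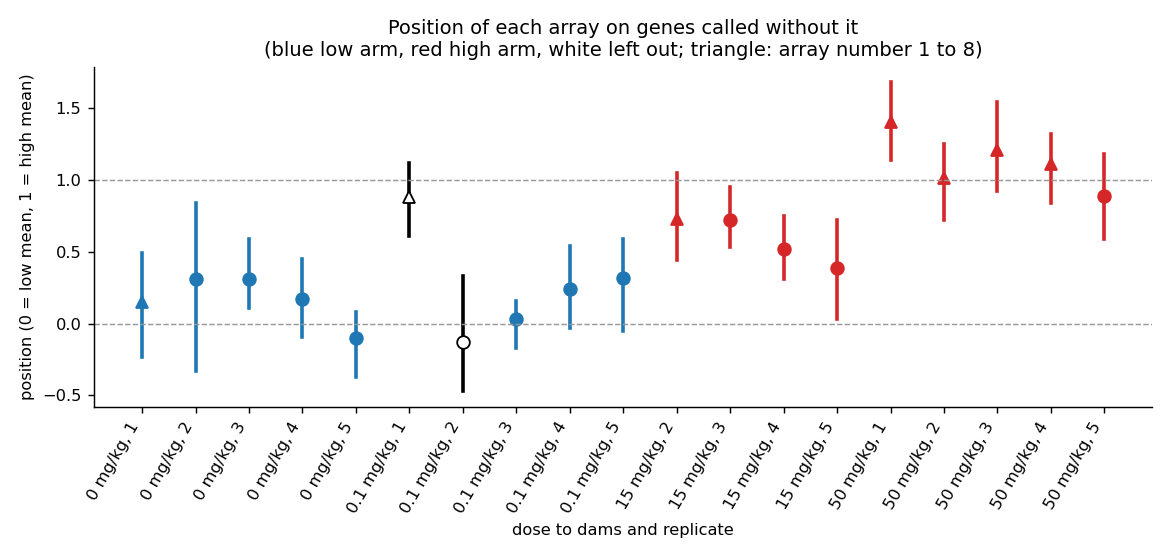
Median position of each of the 19 arrays between the low mean (0) and the high mean (1) on genes called without that array, AhR targets aside (vertical axis), by dose to the dams and replicate (horizontal axis), with bars for the quartiles over genes. The low arm (blue) lies from -0.10 to 0.32, the high arm (red) from 0.39 to 1.40, and replicate 1 at 0.1 mg/kg (white triangle) at 0.88.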

How the data were processed

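Liver RNA was hybridised to 1-colour Affymetrix Rat230_2 arrays. The deposited values are log2 signals of 31099 probe sets on 19 arrays, and the submitters' processing notes name RMA, which corrects background, normalizes by quantiles and summarises probe sets. No version of it is stated in the sources used here. Array medians lay between 6.05 and 6.16 and values between 2.40 and 15.06. The number of arrays limits the precision.

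The 57 control probe sets were left out. Of the 31042 tested, 20826 had 1 gene symbol in the platform annotation, 436 several and 9780 none, and 20758 matched RefSeq by gene ID. For each gene the brightest probe set over all arrays was taken, leaving 14217 genes. Of the 479 probe sets called with 17 arrays, 374 carried 1 symbol, 16 several and 89 none, and the latter were not named. Each arm had 1 mean in limma 3.58.1 (R 4.3.3), with 15 residual and 2.85 prior degrees of freedom. A fold is the power of 2 of the log2 difference. The submitters' maanova fits of vehicle against each dose were not repeated with that package.

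The members, the 28 pathway and 16 cell type lists and the tests were chosen with earlier results of these data known. Named genes were the 12 largest rises and 12 largest falls among called genes with arms apart, up to 3 members per pathway list with the largest difference, up to 3 called members per cell type list, and genes of the receptors and hormones described. Members of a list given to complete it, such as glutathione transferases, were chosen after their values were seen. Tested on simulated data for 9 against 8 arrays, the fit found 79.1% of probe sets shifted by 0.5 log2 units, 95.5% at 1 unit and 98.5% at 2 units, and 4.71% of its calls were false. The simulated noise was normal and independent, without array-number or tissue differences between arrays. These shares therefore do not describe the calls in the real data.

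Replicate numbers occur in several groups. Same-numbered arrays of opposite arms deviated from their dose-group means with correlations of -0.534 to 0.496 (median -0.053). Of these pairs 2 of 15 exceeded 0.1, beside 17 of 57 pairs with other numbers. The check showed no pairing by number, but with other tissues uneven between arrays it cannot exclude one. The alternatives were other choices of arrays, array-number terms, other normalizations and priors, array weights, tissue scores, and each array left out in turn. Alternatives chosen after seeing the data were the late arrays with replicate 2 at 0.1 mg/kg kept, and all 19 arrays with the array-number block.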

Additional observations from a re-analysis of the deposited data

Results flagged for a closer look

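Of 184 arms of named genes examined, 13 values stood far from the rest of their arm, and chance flags about 1 in 20. Vehicle replicate 2 held 5 of them. Its signals were 9.42 for Acy3 (other low arrays 8.18 to 8.50), 8.43 for Akr7a3 (6.58 to 7.34) and 12.13 for Aldh1a1, a retinal dehydrogenase (8.46 to 9.32). It was low at 4.76 for Ahr (others 5.92 to 6.72) and at 10.69 for the sterol isomerase Ebp (others 11.21 to 11.57). The same array had the highest kidney marker level, 8.71, and the part of that in these values was not tested.

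Replicate 5 at 15 mg/kg held 2, with Apoa4 at 12.31 (other high arrays 7.94 to 9.39) and Serpina3m at 6.98 (7.91 to 8.74). Its intestine marker level, 8.91, was the highest of the 17 arrays. Vehicle replicate 1, highest in muscle markers at 10.25, held Rbp7, a retinol-binding protein, at 6.71 (5.16 to 5.72) and Ttr at 14.58 (14.50 to 14.53). Vehicle replicate 5 had Prlr at 10.25 (8.76 to 9.41). In the high arm, Prlr was 7.41 on replicate 3 at 50 mg/kg (8.07 to 8.74), Ablim3 was 7.40 on replicate 1 at 50 mg/kg (7.67 to 7.84), and Fgf21, a hepatic hormone of fasting, was 10.69 on replicate 4 at 15 mg/kg (7.02 to 8.68).

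Replicate 1 at 0.1 mg/kg, which the comparison does not use, had a median position of 0.88 between the low mean and the high mean, outside the -0.10 to 0.32 of the low arm.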

How the results depend on the processing

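No gene called with 17 arrays and named changed sign in 38 settings, which largely share their arrays. The number of calls moved, and the causes were not tested. The 17 arrays gave 479 probe sets (273 higher and 206 lower). All 19 arrays gave 218 (146 and 72), leaving out replicate 1 at 0.1 mg/kg alone 822 (474 and 348), and vehicle alone as low arm 94 (76 and 18). The array-number block gave 63 (51 and 12), with all 19 arrays 39 (35 and 4). The late arrays alone gave 8 (8 and 0), or 12 (12 and 0) with replicate 2 at 0.1 mg/kg kept. Array number as a covariate gave 136 (93 and 43) and the first digit of the 4-digit number in the descriptions as a block 37 (35 and 2). The replicate block gave 264 (155 and 109), for numbers that were not shown to pair the arrays. Median-centred arrays gave 317 (220 and 97), array weights 1363 (628 and 735), tissue scores as covariates 958 (391 and 567), the probe sets above the median level 711 (361 and 350), and the mean over probe sets of a gene 320 (211 and 109).

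Leaving out 1 array gave 203 to 820 calls (130 to 511 higher and 73 to 309 lower). Without vehicle replicate 2, which has the near-identical array, falls outnumbered rises (501 calls, 233 higher and 268 lower), as they did with array weights and tissue scores. The lowest came without replicate 3 at 0.1 mg/kg and the highest without replicate 5 at 15 mg/kg. Counts also moved by over 1.5 times without vehicle replicates 1 (318), 4 (316) and 5 (221) and without replicates 1 (228), 2 (302), 3 (255) and 4 (253) at 50 mg/kg. Of 48 named calls outside the AhR list, 40 passed in all 17 such fits, 41 with all 19 arrays and 23 with the array-number block. Other tissues were uneven between arrays, the array number is tied in part to the arms, and signals near the top of the range understate folds.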

Other observations

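Of 20 carboxylesterases and aldo-keto reductases, 4 rose and 0 fell (20%, beside 1.36% of all genes higher). These were Akr1c14, Akr7a3, Ephx1 and Ces2c, each described above. Of 19 genes known to differ between the sexes in adult rat liver, 4 rose (Cyp2c7, Cyp2c11, Cyp2a1 and Akr1c14) and 1 fell (Prlr). These make 26.3% of the list, beside 2.08% of all genes called, and the list median was 0.14. Cyp2c11 is known as male-predominant, and Cyp2c7 and Cyp2a1 as female-predominant, so members of both kinds rose. Cyp2a1, a testosterone hydroxylase, rose by 0.62 (SE 0.0983) from 11.50 ± 0.191 (SD, n = 8), with arms apart (limma adjusted p = 0.00406). Of 23 coagulation and complement genes, Pros1, which encodes protein S, rose by 0.43 (SE 0.0885) (limma adjusted p = 0.0227, 0.138 with the array-number block) and 0 fell. That is 1 gene, 4.35% of the list, beside 2.08% of all genes called. Of 15 glycolysis genes, Pklr fell and 0 rose (6.67%, again 1 gene).

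Among the lists of blood and other liver cells, 0 of 16 erythroid, 0 of 13 Kupffer cell, 0 of 10 eosinophil and mast cell, 0 of 7 B lymphocyte, 0 of 8 megakaryocyte, 0 of 9 bile duct, 0 of 11 adipocyte and 0 of 8 mesothelium genes passed with 17 arrays. Their medians were -0.29, -0.17, -0.17, -0.02, -0.18, -0.19, 0.07 and -0.08 in that order.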
